A study of Triticum aestivum with 12 samples.

Results

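In a comparison of wild-type wheat with 3 transgenic lines, 59 of 124118 genes were raised in every line library. They were chosen by their deposited FPKM values (fragments per kilobase of gene, scaled to sequencing depth, a level per gene length). Each gene was at 1 FPKM or more in all 9 libraries of the lines, and each of those 9 values was more than 4 times the highest of the 3 wild-type values. Of the 41950 genes that met the 1 FPKM minimum, 0.141% passed the fold limit. The high level in the lines is thus how the genes were found, and it is described here with no test. The rule did not ask how the 3 lines compare with one another, or what the genes encode and where they lie.

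The samples were bread wheat (Triticum aestivum) seedlings aged 2 months, left untreated, of which the upper part without roots was taken for RNA sequencing. The wild type (WT) was compared with the lines C20, C22 and C40 (also written 40C in the labels), which each overexpress TaSIP1 in a form marked ΔC. The series title connects TaSIP1 and its partner TaSRO1 with mitochondrial retrograde signalling and salinity tolerance. All 4 groups had 3 libraries each and shared age, tissue and the lack of treatment. Neither the promoter of the transgene nor the number of plants per sample is given in the sources used here, and the TaSIP1 gene itself was not analysed here. In bulk tissue, fewer cells of a type and less RNA per cell cannot be told apart.

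Plants answer attack and other stress with a set of inducible proteins. Calcium-binding sensors and immune receptors start the response, transcription factors of the WRKY, AP2 and Myb families relay it, and pathogenesis-related proteins such as PR-1, chitinases, beta-glucanases and thaumatin-like proteins are secreted at its end. Mitochondrial retrograde signalling is the route by which mitochondria change the activity of nuclear genes, and alternative oxidase is its classical target in plants.

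Gene counts summed to between 25622422 and 43532179 per library. Whether replicates came from separate plants is not in the labels, so the p-values below rest on a spread between libraries that may be technical only. Genes of chlorophyll-binding, photosystem and Rubisco small-subunit proteins, the markers of green shoot (238 genes, 22 at 0 in every library), summed to 160736 to 234033 CPM (counts relative to the scaled library total) in WT, 44401 to 226085 in C20, 58702 to 103575 in C22 and 51314 to 99934 in C40. Genes of histones, cyclins, kinesins, MCM proteins and tubulins, the markers of dividing tissue (769 genes, 60 at 0 in every library), summed to 5876 to 6370 CPM in WT, 5538 to 23883 in C20, 13008 to 19007 in C22 and 6154 to 17194 in C40. C20 replicate 2 held the highest division sum and the lowest photosynthesis sum of the 12 libraries, while C20 replicate 3 and C40 replicate 1 had division sums near those of WT. What these differences contribute to the levels below was not tested.

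Most of the 59 genes were low in WT, a side that the rule favours, and 48 had a WT mean under 1 FPKM. The median WT mean of all 41950 genes that met the minimum was 6.08 FPKM. For the 59 genes the mean over the 3 WT libraries had a median of 0.305 FPKM, the highest being 3.55 FPKM. In 42 of them no WT library reached 1 FPKM. In the lines the median of the means of the 59 was 12.3 FPKM, with a range from 2.40 to 201 FPKM. The median for all 41950 genes that met the minimum was 6.02 FPKM. For the 53 genes with more than 3 WT counts, the ratio of the line mean to the WT mean ran from 8.53 to 269. The median ratio was 31.7 when the 2 genes with 0 WT counts were placed at their lower bounds. The genes were short, with a median length of 687 bases against 1287 bases for expressed genes. A further 312 genes passed the fold limit but not the minimum.

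**Figure D1:**
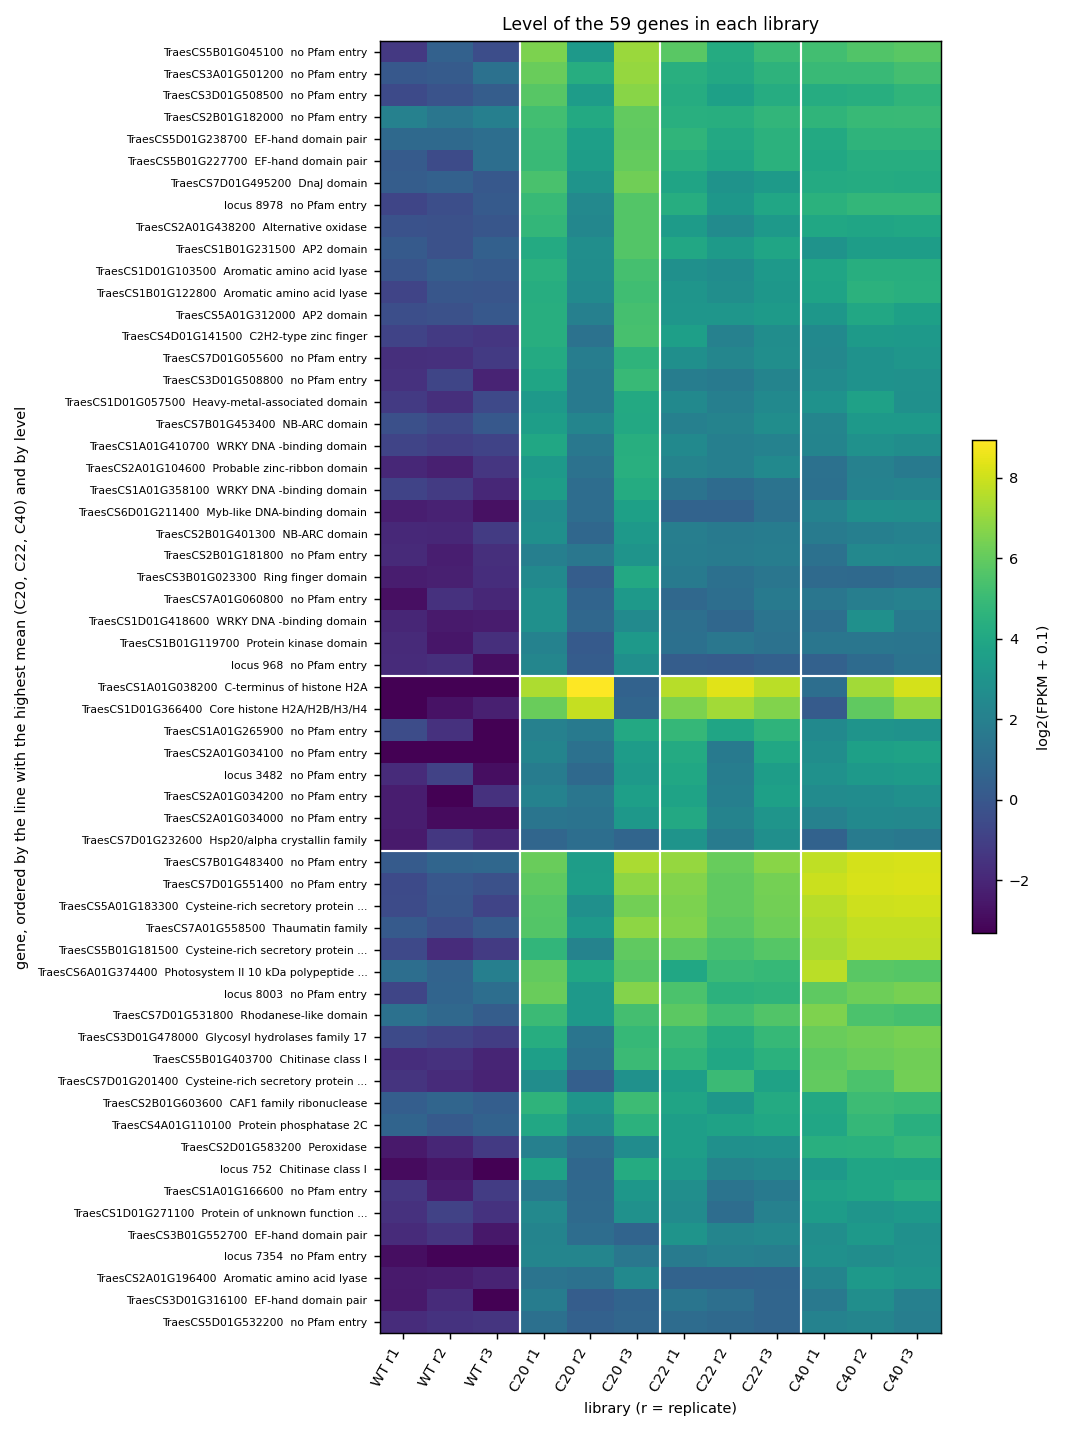
Each row is 1 of the 59 genes and each column 1 of the 12 libraries; the colour is log2(FPKM + 0.1), and white lines part the groups and the blocks of genes with their highest mean in C20 (29 genes), C22 (8) and C40 (22). The WT columns are dark throughout, C20 replicate 2 is darker than C20 replicates 1 and 3 for 54 genes, and the 2 histone genes are dark in C20 replicate 3 and C40 replicate 1.

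Of the 59 genes, 38 had a Pfam domain description and 21 had none. Secreted proteins of defence made up the largest described group with 7 genes, and held 6 of the 10 described genes with the highest line mean. All 7 had their highest mean in C40. They were 3 PR-1 type genes, 2 chitinases, a beta-glucanase and a thaumatin-like protein. In that order the lists made up 5.08%, 3.39%, 1.69% and 1.69% of the members. Their shares of the expressed genes were 0.0141%, 0.0787%, 0.149% and 0.0524%. The other defence lists, of barwin, Bet v 1, protease inhibitor, and jacalin and lectin genes, held 0 members.

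The PR-1 type genes encode small secreted proteins with a CAP domain that serve as markers of salicylate-dependent defence. TraesCS5A01G183300 (5A, 382777934 to 382778428, minus strand) stood at 0.607, 0.885 and 0.479 FPKM in WT replicates 1 to 3. In the lines it reached 51.9, 7.07 and 80.9 FPKM in C20, 90.0, 62 and 80.6 FPKM in C22 and 197, 255 and 267 FPKM in C40. The lowest line value, in C20 replicate 2, still exceeded the highest WT value by 7.99 times, and the 3 C40 libraries lay above the other 6 line libraries. Its mean was 0.657 ± 0.208 FPKM in WT (SD, n = 3) against 121 ± 93.9 FPKM in the lines (SD, n = 9), a ratio of 185.

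TraesCS5B01G181500 has the same description and length on chromosome 5B (331247621 to 331248115). Its levels were 0.552, 0.19 and 0.342 FPKM in WT, 26.2, 4.38 and 62 in C20, 59, 41 and 51.3 in C22 and 157, 205 and 208 in C40. The 2 genes thus had the same order of libraries within C20, within C22 and within C40, with C20 replicate 2 low in both. Their sequences were not compared here, and if the copies on 5A and 5B are near-identical they could share reads, so how their counts divide is uncertain. The third gene, TraesCS7D01G201400 (7D, 160534157 to 160534678), rose from 0.262, 0.18 and 0.13 FPKM in WT to 6.26, 1.19 and 7.14 in C20, 11.7, 32.8 and 13 in C22 and 64, 43.1 and 80.3 in C40. C22 lay between the other lines, above all C20 libraries and below all C40 libraries. The gene next to it, TraesCS7D01G201300, also of PR-1 type, fell just short of the rule with a lowest line value 3.96 times the highest WT value. Over the whole family, 22 genes that are not among the 59 had enough counts for a test of the lines against WT, and 10 of them rose and 0 fell (edgeR quasi-likelihood test, Benjamini-Hochberg adjusted p). Over all 75788 genes tested, 11.5% rose and 11.7% fell.

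Chitinases cleave the chitin of fungal cell walls. TraesCS5B01G403700 (5B, 580164998 to 580166436) had 0.201, 0.23 and 0.142 FPKM in WT and 12, 2.28 and 32.7 FPKM in C20. It had 25.8, 15.8 and 22.4 FPKM in C22 and 59.8, 69.8 and 76.6 FPKM in C40, so all C40 values were above all others. The other chitinase, locus 752 (1B, 394507870 to 394509241), had 0.0272, 0.0622 and 0 FPKM in WT, which rest on 3 counts in all. This is 1 of 6 members without a reference identifier, called here by the number in the authors' own identifier. Locus 752 reached 13.1, 1.6 and 18.1 FPKM in C20, 9.42, 4.39 and 4.94 in C22 and 9.92, 14.4 and 14 in C40. In CPM the lines exceeded WT 312-fold for locus 752, with a 95% counting interval of 107 to 1513 that covers counting error only. Among the 68 other chitinase genes tested, 9 rose and 3 fell.

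TraesCS3D01G478000 encodes a glycosyl hydrolase of family 17, the family of the beta-glucanases that attack fungal walls and callose. Its levels were 0.571, 0.467 and 0.37 FPKM in WT, 19.6, 2.65 and 29.2 in C20, 31.4, 18.5 and 29.5 in C22 and 70.6, 77.8 and 84 in C40. TraesCS7A01G558500 belongs to the thaumatin family, known as PR-5, and had 0.994, 0.659 and 1.04 FPKM in WT, 49.3, 9.67 and 114 in C20, 96.4, 54.8 and 75.1 in C22 and 178, 224 and 224 in C40. In both genes the C40 libraries lay above all others and C20 replicate 2 was the lowest line library. TraesCS2D01G583200 is a haem peroxidase, an enzyme class that uses hydrogen peroxide at the cell wall. It rose from 0.0799, 0.152 and 0.33 FPKM in WT to 3.91, 1.96 and 6.19 in C20, 11.6, 6.97 and 7.25 in C22 and 21.4, 21.8 and 27.8 in C40, and the 3 lines did not overlap. Family members outside the 59 moved both ways: 33 glucanase genes rose and 11 fell of 132, 10 thaumatin genes rose and 7 fell of 71, and 33 peroxidase genes rose and 45 fell of 257.

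**Figure D2:**
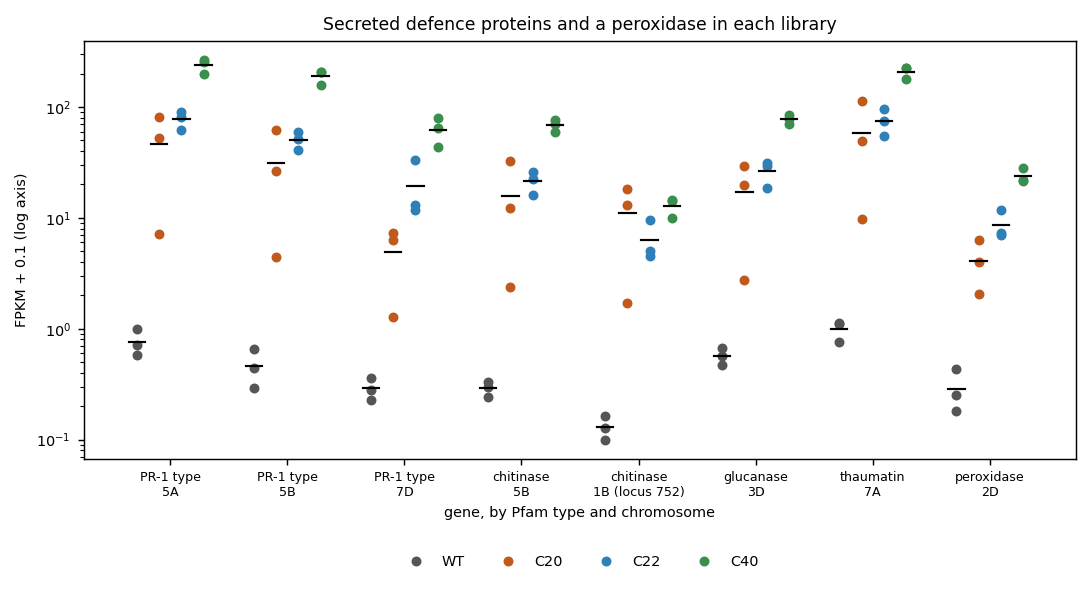
Level of the 7 secreted defence genes and the peroxidase, as FPKM + 0.1 on a log axis; each point is 1 library and each bar the mean of 3 libraries. C40 (green) lies above all other libraries for 7 of the 8 genes, the exception being locus 752, and the lowest orange point of each gene is C20 replicate 2.

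The 59 also included genes of immune receptors and calcium-binding proteins. The NB-ARC genes encode intracellular immune receptors. TraesCS7B01G453400 had 0.706, 0.531 and 0.924 FPKM in WT, 11.7, 4.67 and 16.6 in C20, 3.93, 4.32 and 6.27 in C22 and 4.65, 9.3 and 9.53 in C40. TraesCS2B01G401300, which also carries leucine-rich repeats, had 0.168, 0.159 and 0.331 FPKM in WT, 6.67, 1.58 and 9.65 in C20, 3.66, 3.15 and 3.46 in C22 and 3.32, 3.74 and 4.15 in C40. Both reached their highest values in C20 replicates 1 and 3, while C20 replicate 2 lay within the range of C22 for the first and below it for the second. The family as a whole was balanced, with 80 other NB-ARC genes rising and 72 falling of 944 tested. A protein kinase gene, TraesCS1B01G119700, went from 0.172, 0.0656 and 0.213 FPKM in WT to between 1.01 and 9.77 FPKM in the lines. Its list made up 1.69% of the members against 3.38% of the expressed genes. Of the 3192 other kinase genes tested, 400 rose and 263 fell.

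The 4 EF-hand genes carry a pair of EF-hand domains, which bind calcium. Their list made up 6.78% of the members against 0.46% of the expressed genes. Of its 302 other genes tested, 53 rose and 31 fell. By Pfam description, 2 were alike on chromosome group 5 and 2 on group 3. The 2 on group 3 start at 787472556 on 3B and 429598773 on 3D, and are not taken as copies of the same gene. On chromosome group 5, TraesCS5D01G238700 rose from 1.72, 1.73 and 2.06 FPKM in WT to 32.3, 12 and 62.1 in C20, 26, 16.7 and 23.4 in C22 and 17.5, 24.7 and 24.7 in C40. TraesCS5B01G227700 rose from 1.03, 0.592 and 2.02 FPKM to 31.5, 11.2 and 65 in C20, 20.5, 14.8 and 22.8 in C22 and 15.8, 19.6 and 19.8 in C40. Both peaked in C20 replicate 3. A gene of the same description on 5A, TraesCS5A01G229000, lay just outside the rule at 3.95 times the highest WT value. On chromosome group 3, TraesCS3B01G552700 had 0.18, 0.274 and 0.0742 FPKM in WT, 4.44, 1.97 and 1.46 in C20, 8.12, 4.71 and 5.17 in C22 and 6.49, 9.77 and 7.0 in C40. For TraesCS3D01G316100 the levels were 0.0813, 0.186 and 0 FPKM in WT, 3.38, 1.11 and 1.45 in C20, 2.61, 2.13 and 1.51 in C22 and 3.02, 6.49 and 3.98 in C40, and its WT values rest on 3 counts. These 2 genes were low in C20 replicate 3 and peaked in C40 replicate 2. TraesCS4A01G110100, a protein phosphatase 2C of a family that removes phosphate from serine and threonine residues, rose from 1.45, 1.02 and 1.36 FPKM in WT to between 5.96 and 28.6 FPKM in the lines.

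Among the 59 were 6 genes of the transcription factor lists: 3 WRKY, 2 AP2 and 1 Myb gene. All 6 had their highest mean in C20. WRKY factors bind W-box elements in defence promoters. TraesCS1A01G410700 had 0.477, 0.378 and 0.455 FPKM in WT, 15.5, 2.92 and 20.2 in C20, 5.52, 3.76 and 4.19 in C22 and 4.58, 7.32 and 6.41 in C40. TraesCS1D01G418600, of the same length on 1D, had 0.147, 0.0841 and 0.091 FPKM in WT, 6.87, 1.58 and 5.67 in C20, 2.11, 1.63 and 2.49 in C22 and 2.13, 7.06 and 3.19 in C40. TraesCS1A01G358100 had 0.453, 0.33 and 0.153 FPKM in WT, 11, 1.96 and 18.7 in C20, 2.41, 1.83 and 2.48 in C22 and 2.16, 4.18 and 4.45 in C40. In each of the 3, C20 replicate 2 lay far below C20 replicates 1 and 3 and within the range of C22 or below it. Of the 196 other WRKY genes tested, 61 rose and 14 fell. All 3 WRKY genes lay on chromosome group 1, and each had a WRKY gene that also rose within 1 Mb.

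AP2 factors include the ethylene-response and cold-response regulators. TraesCS1B01G231500 rose from 0.992, 0.73 and 1.27 FPKM in WT to 17.6, 6.51 and 49.9 in C20, 16, 10.2 and 14.8 in C22 and 7.83, 11.2 and 11.2 in C40. TraesCS5A01G312000 rose from 0.674, 0.73 and 0.928 FPKM to 20.2, 3.95 and 40.1 in C20, 8.48, 8.54 and 10.2 in C22 and 8.89, 16.1 and 12.5 in C40. C20 replicate 3 was the highest library for both, and C20 replicate 2 the lowest line library. The Myb gene TraesCS6D01G211400 was at 0.107, 0.123 and 0.0442 FPKM in WT, 6.04, 1.98 and 12.4 in C20, 1.39, 1.38 and 2.24 in C22 and 4.18, 6.82 and 6.63 in C40. C22 was its lowest line by mean. Of the other AP2 genes tested, 45 rose and 17 fell of 244, and of the other Myb genes 31 rose and 62 fell of 466.

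Other regulators had no fixed list or stood alone in theirs. The RING finger gene TraesCS3B01G023300, of a class of ubiquitin ligases, rose from 0.0997, 0.114 and 0.206 FPKM in WT to between 1.13 and 17 FPKM, with its peak in C20 replicate 3. A C2H2 zinc finger gene, TraesCS4D01G141500, rose from 0.455, 0.326 and 0.282 FPKM to between 2.32 and 40.7 FPKM, with the same peak. TraesCS2B01G603600 encodes a CAF1 ribonuclease, a class that shortens the poly(A) tails of messenger RNA, and rose from 1.15, 1.5 and 1.18 FPKM to between 8.24 and 33.9 FPKM. For all 3 genes C20 replicate 2 was the lowest line library. TraesCS2A01G104600, with a probable zinc-ribbon domain, rose from 0.156, 0.112 and 0.278 FPKM to between 2.26 and 21.3 FPKM. The list of the RING finger gene made up 1.69% of the members against 2.08% of the expressed genes. Of its 1692 other genes tested, 138 rose and 153 fell.

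Aromatic amino acid lyases open the phenylpropanoid pathway, which feeds lignin and defence phenolics. TraesCS1D01G103500 had 0.822, 1.12 and 1.02 FPKM in WT, 22, 6.22 and 39 in C20, 6.9, 6.03 and 9.91 in C22 and 14.6, 20.2 and 20.2 in C40. TraesCS1B01G122800, of equal length on 1B, had 0.475, 0.883 and 0.827 FPKM in WT, 19.9, 5.7 and 36 in C20, 8.29, 6.63 and 8.77 in C22 and 13.5, 23.1 and 20.9 in C40. By mean, C22 was the lowest line for both. The third lyase, TraesCS2A01G196400 (2A, 166254570 to 166256576), was scarcer, with 0.0817, 0.0935 and 0.135 FPKM in WT, 2.51, 2.24 and 5.49 in C20, 1.39, 1.4 and 1.43 in C22 and 4.5, 9.46 and 8.11 in C40. Its C22 libraries were nearly equal and below all others. The list of lyase and chalcone synthase genes leaned the other way, with 11 other genes rising and 26 falling of 82 tested.

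Alternative oxidase passes electrons from ubiquinol to oxygen in the inner mitochondrial membrane without pumping protons. TraesCS2A01G438200 (2A, 689630253 to 689631640) was the only one of 15 alternative oxidase genes in the table to meet the rule. Its levels were 0.748, 0.721 and 0.878 FPKM in WT, 27.6, 4.98 and 50.7 in C20, 10.5, 5.9 and 9.66 in C22 and 15.4, 14.5 and 15.5 in C40. The C40 libraries agreed closely with one another, and the C20 libraries spanned a range that enclosed those of both other lines. Of the 12 other alternative oxidase genes tested, 6 rose and 0 fell. The adjacent TraesCS2A01G438300 reached 0.786 to 9.60 FPKM in the lines against 0.248 to 0.348 FPKM in WT, and so failed both the 1 FPKM minimum and the fold limit.

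Chaperones gave 2 members and photosystem proteins 1. The DnaJ gene TraesCS7D01G495200, of a class of Hsp70 partners, had 1.12, 1.29 and 0.952 FPKM in WT, 42.8, 7.91 and 78.1 in C20, 14.3, 7.81 and 9.96 in C22 and 17.9, 18.4 and 17.8 in C40. The small heat shock gene TraesCS7D01G232600 had 0.0867, 0.298 and 0.161 FPKM in WT, 1.52, 2.07 and 1.48 in C20, 7.92, 3.31 and 6.75 in C22 and 1.33, 3.35 and 2.94 in C40. They differed in line, the first being highest in C20 and the second in C22. Chaperone genes made up 3.39% of the members against 0.629% of the expressed genes. Of the 388 others tested, 79 rose and 40 fell. TraesCS6A01G374400 encodes PsbR, a small subunit of photosystem II, and had 2.08, 1.42 and 3.79 FPKM in WT, 62.5, 15.8 and 54.2 in C20, 15.5, 32.8 and 29.3 in C22 and 199, 54.6 and 52.2 in C40. It stood apart from its list, in which 3 of the other 177 genes tested rose and 46 fell. C40 replicate 1 held its highest value, and likewise that of the rhodanese-domain gene TraesCS7D01G531800 (sulphur transfer), which rose from 2.28, 1.68 and 1.12 FPKM in WT to between 9.41 and 93.9 FPKM in the lines. The heavy-metal-binding TraesCS1D01G057500 rose from 0.318, 0.219 and 0.552 FPKM to between 3.11 and 17.4 FPKM, and TraesCS1D01G271100, with a domain of unknown function, from 0.237, 0.426 and 0.252 FPKM to between 1.77 and 10.8 FPKM.

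**Figure D3:**
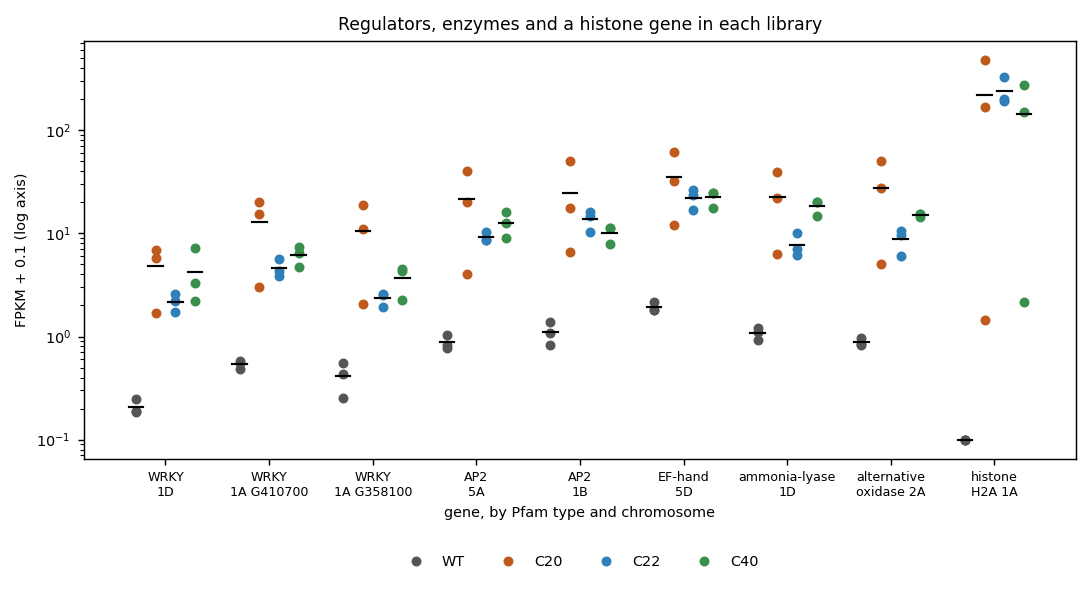
Level of 6 regulator genes, 1 ammonia-lyase, the alternative oxidase and the histone H2A gene, as FPKM + 0.1 on a log axis; each point is 1 library and each bar the mean of 3. Means of the regulators are highest in C20 (orange) while the C20 points are also the most spread, and the histone gene has 1 C20 point and 1 C40 point near 1 to 2 FPKM, far below the rest.

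The 2 histone genes behaved unlike all others. Core histones package DNA and are made mainly in cells that replicate it. TraesCS1A01G038200, a histone H2A gene (1A, 21022806 to 21023363), had 0 counts in every WT library. In the lines it stood at 171, 486 and 1.34 FPKM in C20, 195, 327 and 199.8 in C22 and 2.06, 151 and 278 in C40. With the WT group set to a floor of 3 counts in all, it was at least 3171-fold higher in CPM. TraesCS1D01G366400, described only as a core histone, had 0, 0.0497 and 0.107 FPKM in WT, on 3 counts, and 68.9, 230.2 and 1.48 in C20, 90.7, 148 and 96.6 in C22 and 1.04, 60.9 and 123 in C40. The lines exceeded WT 1957-fold in CPM, with a 95% counting interval of 669 to 9489. Both genes were near 1 to 2 FPKM in C20 replicate 3 and C40 replicate 1 and between 60.9 and 486 FPKM in the other 7 line libraries. The summed CPM of the division markers was 5538 and 6154 in those 2 libraries, beside 5876 to 6370 in WT and at least 11147 in the other 7. That sum includes these 2 genes themselves, and its part in their levels was not tested. For both genes C20 replicate 2, in which most of the other 57 genes were lowest, was the highest library. Of the 662 other genes of the division list tested, 386 rose and 10 fell.

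The 21 genes without a Pfam description include 5 loci without a reference identifier. Among the 21 were 2 of the 3 genes with the highest line mean. TraesCS7B01G483400 rose from 1.05, 1.5 and 1.62 FPKM in WT to 69.6, 11 and 164 in C20, 126, 67.1 and 106 in C22 and 216, 283 and 286 in C40. TraesCS7D01G551400 rose from 0.576, 0.899 and 0.713 FPKM to 59.5, 11.5 and 114 in C20, 101, 61.2 and 81 in C22 and 244, 292 and 302 in C40. Both followed the pattern of the PR-1 genes, with C40 above all other libraries. Locus 7354 (4D, 451886064 to 451892276) was the steadiest, with 0.0365, 0.00837 and 0.00906 FPKM in WT, 4.66, 4.7 and 2.8 in C20, 3.37, 3.98 and 3.7 in C22 and 6.91, 6.27 and 7.12 in C40. Its highest line value was 2.54 times its lowest, the smallest such ratio of the 59, beside a median of 8.94.

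The undescribed genes TraesCS2A01G034000, TraesCS2A01G034100 and TraesCS2A01G034200 are the only genes in 69103 bases of chromosome 2A (15030834 to 15099937). TraesCS2A01G034000 rose from 0.0971, 0.0278 and 0.0301 FPKM in WT to 2.62, 2.4 and 9.04 in C20, 16.5, 4.34 and 8.4 in C22 and 4.04, 5.49 and 5.16 in C40. TraesCS2A01G034200 rose from 0.0948, 0 and 0.235 FPKM to 4.19, 2.69 and 12 in C20, 13.5, 3.78 and 12.4 in C22 and 5.81, 6.08 and 6.96 in C40. In CPM its lines exceeded WT 71.5-fold (95% counting interval 24.3 to 348). TraesCS2A01G034100 had 0 counts in WT and 4.44, 2.26 and 10.8 FPKM in C20, 18.1, 3.13 and 15.6 in C22 and 6.22, 12.2 and 13.3 in C40, at least 92.5-fold over the floor in CPM. In all 3 genes C22 replicate 1 was the highest library and C22 replicate 2 was well below it. All 3 had their highest mean in C22, as had 2 other undescribed genes, TraesCS1A01G265900 (3.25 to 28.0 FPKM in the lines) and locus 3482 (1.74 to 15.8 FPKM).

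There were 2 further pairs of close neighbours among the undescribed genes. TraesCS3D01G508500 and TraesCS3D01G508800 lie within 88899 bases of 3D. The first rose from 0.576, 0.792 and 1.14 FPKM in WT to 53.6, 11 and 106 in C20, 19.3, 12.5 and 18.8 in C22 and 18.8, 20.5 and 25.4 in C40, and the second was at 3.10 to 30.2 FPKM in the lines. TraesCS3A01G501200, which has the same length of 237 bases as the first, rose from 0.922, 1.06 and 2.28 FPKM to 70.1, 19.9 and 125 in C20, 21, 16.5 and 23.8 in C22 and 31, 31.3 and 38.6 in C40. All 3 peaked in C20 replicate 3. TraesCS2B01G181800 and TraesCS2B01G182000 lie within 435354 bases of 2B and reached 2.27 to 8.05 and 17.1 to 62.6 FPKM in the lines. The second had the highest WT mean of the 59 genes, 3.55 FPKM, and the lowest ratio, 8.53.

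The other undescribed genes are given by their range over the 9 line libraries. TraesCS5B01G045100 had 9.52 to 134 FPKM, and locus 8003, which lies within 976513 bases of it, 9.79 to 100.1 FPKM. Lower ranges were found for locus 8978 (5.33 to 49.3 FPKM), TraesCS7D01G055600 (3.49 to 25.3 FPKM) and TraesCS1A01G166600 (1.74 to 19.1 FPKM). The scarcest were TraesCS7A01G060800 (1.46 to 9.53 FPKM), locus 968 (1.06 to 6.69 FPKM) and TraesCS5D01G532200 (1.29 to 4.70 FPKM).

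Of the 46 lists of Pfam descriptions that matched any gene in the table, 18 held a member and 28 held none. Since only 0.141% of the genes at the 1 FPKM minimum met the rule, an empty list says little about its family. The first lists named below had 167, 124, 120, 81 and 690 genes at that minimum, in the order given. The lists without one included cytochrome P450 (649 genes tested, 81 rose and 156 fell), glutathione transferase (223 tested, 46 rose and 32 fell), glycosyltransferase (451 tested, 60 rose and 91 fell), NAC transcription factors (216 tested, 30 rose and 22 fell) and ribosomal proteins (768 tested, 259 rose and 95 fell). Defence lists without a member were barwin (9 tested, 3 rose and 1 fell) and Bet v 1 (24 tested, 4 rose and 3 fell). The others were protease inhibitors (56 tested, 6 rose and 19 fell) and jacalin and lectin genes (429 tested, 64 rose and 34 fell). These counts are of the lines against WT by the same edgeR test.

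Genes of the same family near a member often rose as well. Within 1 Mb of their start, 19 of the 59 had a neighbour with the same Pfam description, 66 such neighbours in all. Of the 39 with enough counts for a test, 25 rose and 2 fell, beside 11.5% and 11.7% of all genes tested. All of these neighbours belong to families that hold a member, and the parts of nearness and of family were not tested. The kinase gene on 1B had 3 such neighbours, TraesCS1B01G119600, TraesCS1B01G119800 and TraesCS1B01G120100, and all 3 rose. The glucanase gene on 3D had 10, of which TraesCS3D01G476500, TraesCS3D01G477300, TraesCS3D01G478200 and TraesCS3D01G478300 rose. The NB-ARC gene on 7B had 9, and 0 of the 2 that could be tested rose. Over the whole lists, 400 of 3192 other kinase genes tested rose and 263 fell. Of 132 other glucanase genes 33 rose and 11 fell, and of 944 other NB-ARC genes 80 rose and 72 fell. Tandem copies can share reads, and no member overlapped another gene in position.

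The 59 genes were spread over 19 of the 21 chromosomes. Chromosomes 2A and 7D held 6 each, 1A, 1B, 1D and 5B held 5 each, and 4B and 6B held 0. Chromosome group 1 held 15, or 25.4% of the members, against 12.9% of the expressed genes. Groups 4 and 6 held 3 and 2 (5.08% and 3.39%, against 12.9% and 11.9%). The D subgenome held 23 (39.0% against 32.8% of expressed genes), and A and B held 18 each. These shares are descriptions of a list of 59 and carry no test.

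The lines themselves could be compared, since the rule did not ask for a difference between them, although its lower limit removed genes that were low in any line library. By mean FPKM, 29 genes were highest in C20, 22 in C40 and 8 in C22. In C40 all 3 libraries lay above the other 6 line libraries for 13 genes, 22% of the 59, beside 2.6% of the genes that met the minimum. These 13 were the 3 PR-1 genes, the chitinase on 5B, the glucanase, the thaumatin gene, the peroxidase, the gene with a domain of unknown function, and 5 undescribed genes (TraesCS7B01G483400, TraesCS7D01G551400, TraesCS1A01G166600, TraesCS5D01G532200 and locus 7354). In C20 and in C22, 0 genes did so, beside 4.35% and 1.72%. All 3 libraries lay below the other 6 for 3 genes in C20 (beside 3.45%), 1 in C22 (3.04%) and 0 in C40 (1.49%).

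A test for any difference between the 3 lines, edgeR's quasi-likelihood F test with p adjusted by Benjamini-Hochberg over 75788 genes, called 4 of the 59 (6.78%), beside 2.49% of all genes tested. At an unadjusted p under 0.05 there were 29, beside 18.2% of all genes tested. The lyase TraesCS2A01G196400 (adjusted p = 0.0247) was higher in C40 than in C22 by a log2 difference of 2.37 ± 0.38 (SE; adjusted p = 0.0269). The PR-1 gene TraesCS7D01G201400 (0.0296) was higher in C40 than in C20 by 3.70 ± 0.63 (adjusted p = 0.0215). The peroxidase TraesCS2D01G583200 (0.0306) was higher in C40 than in C20 by 2.57 ± 0.45 (adjusted p = 0.0230). The undescribed TraesCS5D01G532200 (0.0353) was higher in C40 than in C20 by 1.31 ± 0.27 (adjusted p = 0.0419). In each of these 4 contrasts all 3 C40 libraries lay above all 3 libraries of the other line in FPKM. When each of the 12 libraries was left out in turn, the call held in 5 fits for the lyase, 10 for the PR-1 gene, 10 for the peroxidase and 1 for the undescribed gene.

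By pairs of lines, C40 was higher than C20 for 3 of the 59 (beside 1.04% of all genes tested) and lower for 0 (0.619%). C40 was higher than C22 for 1 (0.224%) and lower for 0 (0.201%). C22 was higher than C20 for 0 (0.537%) and lower for 0 (0.534%), as adjusted calls. At an unadjusted p under 0.05, C22 was higher than C20 for 5 of the 59 (beside 8.31%) and lower for 16 (8.68%), C40 was higher than C20 for 15 (8.9%) and lower for 5 (7.26%), and C40 was higher than C22 for 17 (6.43%) and lower for 2 (3.6%). The counts against WT, which the rule used and from which nothing is read, were 59 of 59 higher for the mean of the lines (11.5% of all genes), 58 for C20 (1.44%), 59 for C22 (9.48%) and 59 for C40 (9.81%).

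**Figure D4:**
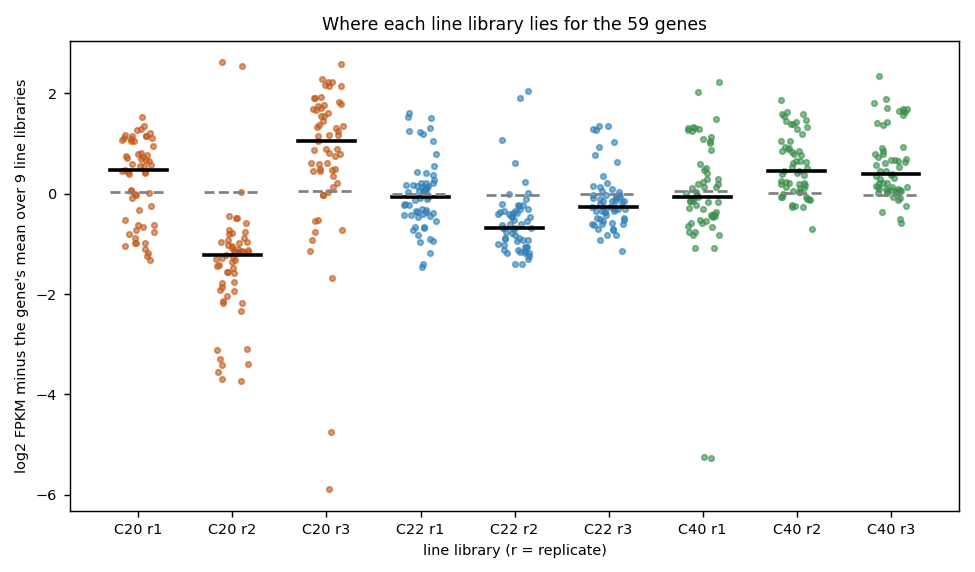
Each point is 1 of the 59 genes in 1 line library, as its log2 FPKM minus its own mean over the 9 line libraries; black bars are medians of the 59 and grey dashes medians of all 41950 genes that met the minimum. C20 replicate 2 has a median of -1.22 and C20 replicate 3 one of 1.05, while the grey dashes stay near 0, and the isolated points far below and above belong to the 2 histone genes.

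Agreement within a line was much poorer in C20. The highest of a line's 3 libraries exceeded the lowest by a median of 6.28 times in C20, 1.63 times in C22 and 1.46 times in C40, beside 1.77, 1.29 and 1.46 for all genes that met the minimum. C20 replicate 2 was the lowest line library for 43 of the 59 genes and lay below both other C20 libraries for 54, against 41.7% of the genes that met the minimum. Its level was a median of 0.204 times the mean of C20 replicates 1 and 3, against 1.00 for those genes. C20 replicate 3 was the highest line library for 31 genes, and for 27.7% of the genes that met the minimum. In this library the photosynthesis markers summed to 226085 CPM and in C20 replicate 2 to 44401 CPM, and their part in the difference was not tested.

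Of the fits with 1 library left out, the one without C20 replicate 2 called the most members in each comparison of lines. The F test then called 36 of the 59, beside 9.53% of all 77513 genes tested in that fit. The members had still been chosen with C20 replicate 2, the lowest line library for most of them. Their counts against C20 in this fit are thus not free of the choice, unlike those of all genes. C22 was lower than C20 for 27 genes (beside 5.24% of all genes) and higher for 1 (2.33%), the small heat shock gene. The 27 included all 3 WRKY genes, the Myb gene, the AP2 gene on 5A, both NB-ARC genes, the kinase, the 3 lyases and the alternative oxidase. C40 was higher than C20 for 8 genes (beside 1.73%), among them the 3 PR-1 genes, the chitinase on 5B, the glucanase and the peroxidase, and lower for 15 (3.37%), among them 2 WRKY genes, both AP2 genes and the alternative oxidase. C40 was higher than C22 for 12 genes (beside 1.92%) and lower for 0 (0.824%). The FPKM readings without it were added after the values were seen. There were again 13 genes with C40 above all other line libraries, beside 3.26% of the genes that met the minimum, and 24 genes had both remaining C20 libraries above the other 6, beside 14.6%. By mean, 6 of the 7 defence genes were then highest in C40 and all 6 transcription genes in C20. Without C20 replicate 3 and C40 replicate 1, all 7 defence genes were highest in C40, but the transcription genes split into 2 highest in C20, 1 in C22 and 3 in C40.

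The rule was also applied to 11 libraries at a time, and the genes it chose were read in the library left out. Those that passed there too were the 59 members every time, by construction. The share that passed thus shows only how many more genes were chosen without that library. Without C20 replicate 1, and likewise without C40 replicate 2, the choice was the same 59 genes. For the other libraries of C22 and C40, between 60 and 67 genes were chosen and 59 passed, 88.1% to 98.3%. Of 95 genes chosen without C20 replicate 3, 62.1% passed, and of 198 chosen without C20 replicate 2, 29.8%. Among those 198, 90.9% were still above the highest WT library in C20 replicate 2, beside 38.6% of all genes at the minimum. The median ratio of the 198 in that library was 2.98. The 198 include the 59 members, which pass by construction, and the rule favours low WT values. The share of all genes at the minimum that passed the fold in the library left out was 0.303% to 1.76%. With a WT library left out, 76 to 88 genes were chosen and 67.0% to 77.6% passed.

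**Figure D5:**
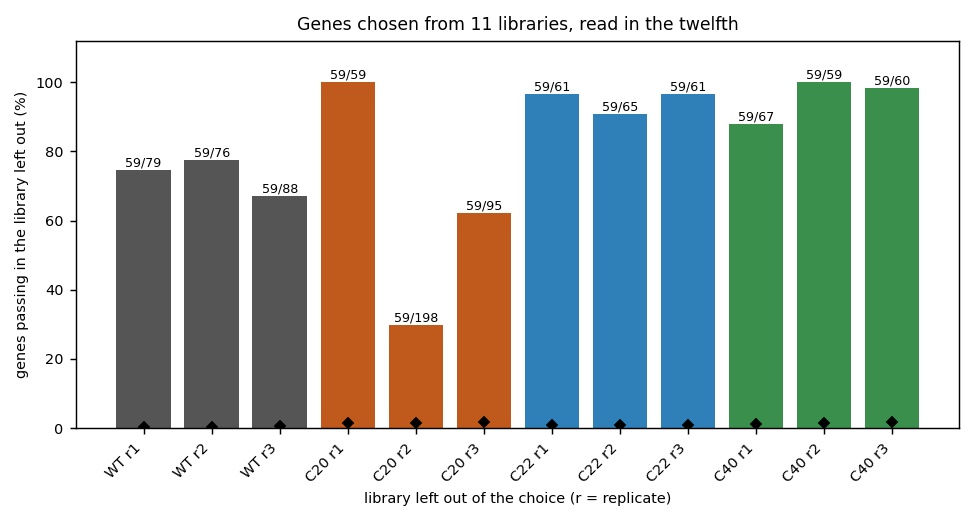
Bars give the percentage of genes chosen from 11 libraries that also pass in the library left out, with passing and chosen numbers above each bar; diamonds give the same percentage for all genes that met the minimum. C20 replicate 2 is lowest at 29.8%, and the diamonds lie between 0.303% and 1.76%. The passing number is 59 for every bar by construction, so the height of a bar follows the number chosen.

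Leaving out a whole line widened the choice by different amounts. The genes that passed again were the 59 members each time, by construction. Without C22, 74 genes were chosen, all 3 C22 libraries passed for 59 of them, and all 74 lay above the highest WT library in each C22 library. Without C40, 73 were chosen, 59 passed and 69 lay above WT throughout. Without C20, 348 were chosen, 59 passed and 244 lay above WT throughout. By the median of the line's libraries, 268 of the 348 passed the fold limit, against 70 of 74 for C22 and 70 of 73 for C40. Each of these choices includes the 59, and the same shares over all genes were not computed. Just inside the fold limit were TraesCS1A01G358100 and locus 3482 (both 4.04 times the highest WT value), TraesCS6A01G374400 (4.08), TraesCS4A01G110100 (4.12) and TraesCS7D01G531800 (4.14). Just outside, besides the PR-1 and EF-hand genes named above, were a cupin gene, TraesCS7A01G386800 (3.83), a U-box gene, TraesCS5D01G204700 (3.82), and a DnaJ gene, TraesCS7B01G445500 (3.76).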

How the data were processed

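RNA from 12 libraries, 3 each of WT, C20, C22 and C40, was sequenced. The authors deposited a table of raw counts, for which the submitters' processing notes name featureCounts 1.5.0-p3, and a table of FPKM. No source used here gives the aligner, the genome build, the annotation or whether strand was used, so antisense and near-identical genes are uncertain. Each deposited FPKM equalled the count divided by gene length and multiplied by a constant of its library. That constant differed from a plain FPKM by a factor of 0.797 to 1.35, so the deposited values were rescaled between libraries, and folds on this scale follow that rescaling.

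The 59 members were chosen by the rule on the deposited FPKM. The members and the 47 gene lists, which are text patterns for Pfam descriptions, were chosen with earlier results of these data known. Between-line tests used the deposited counts in R 4.3.3 with edgeR 4.0.16: filterByExpr (75788 genes left, all 59 members among them), TMM, 4 group means over all 12 libraries, glmQLFit and glmQLFTest, and Benjamini-Hochberg adjustment over all genes tested. Genes were called at an adjusted p of at most 0.05. Standard errors were obtained by dividing the log2 fold change by the square root of F. The method was tested on simulated data. CPM are counts over TMM-scaled totals. Counting intervals are exact at 95%, floors are 3 counts over the WT group, and both cover counting error only.

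Genes named in the text followed a rule on ratio, level, list, between-line test, threshold and position; the members outside that rule are named too, so that all 59 are accounted for. Neighbours and families were described after the values were seen. Replicates differed by more than sampling noise (lowest chi-square per gene of a replicate pair 7.05). The RefSeq gene table given matched 0 of the gene identifiers, so names are those of the count table. Alternatives were other folds, minimums and scalings of the rule, DESeq2 1.42.0, limma 3.58.1 on log2(FPKM + 0.1) and log2(FPKM + 1), other filters and size factors, a replicate block, the line libraries alone, and libraries or lines left out.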

Additional observations from a re-analysis of the deposited data

Results flagged for a closer look

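The difference between the 3 lines passed the test for 4 of the 59 genes. In edgeR's quasi-likelihood F test the adjusted p (Benjamini-Hochberg) was 0.0247 for the lyase TraesCS2A01G196400, 0.0296 for the PR-1 gene TraesCS7D01G201400, 0.0306 for the peroxidase TraesCS2D01G583200 and 0.0353 for the undescribed TraesCS5D01G532200. All 4 had their highest mean in C40.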

How the results depend on the processing

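The number of genes that met the rule was 100 at a fold of 3, 17 at a fold of 8, 105 at a minimum of 0.5 FPKM, 20 at 5 FPKM, 45 on TMM-scaled CPM (40 shared) and 120 on FPKM from raw library totals. It was 59 to 198 with 1 library left out, 855 without C20 replicate 3 and C40 replicate 1, and 348, 74 and 73 without line C20, C22 or C40. Without C20 replicate 3 and C40 replicate 1, 17 members were highest in C20 and 35 in C40.

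Member genes that differed between all 3 lines, between C22 and C20, C40 and C20, and C40 and C22 are given in that order, each with the share of all genes tested. They numbered 18 (11.2%), 10 (7.16%), 12 (7.1%) and 5 (3.32%) with DESeq2. With limma they were 6 (3.96%), 1 (1.79%), 8 (2.93%) and 3 (1.58%) on log2(FPKM + 1), and 4 (3.7%), 0 (1.95%), 4 (2.76%) and 2 (1.04%) on log2(FPKM + 0.1). They were 0 (0.281%), 0 (0.0214%), 1 (0.433%) and 0 (0.0508%) with the line libraries alone, and 8 (2.72%), 1 (1.69%), 6 (1.09%) and 1 (0.92%) without C20 replicate 3 and C40 replicate 1. With 1 library left out they ranged over 0 to 36 (0.378% to 9.53%), 0 to 28 (0.00517% to 7.58%), 0 to 23 (0.343% to 5.1%) and 0 to 12 (0.0477% to 2.74%), the highest each time without C20 replicate 2. With the replicate block they were 2 (0.866%), 0 (0.146%), 2 (1.06%) and 1 (0.218%). Deviations of the 18 same-numbered pairs correlated at -0.51 to 0.46, and 8 exceeded 0.1. Those between replicate 2 libraries were all positive, at 0.09 to 0.46, while those of replicates 1 and 3 took both signs. Whether equal replicate numbers mark something shared was not tested. RLE factors and both other filters kept the counts within 1.5 times of the main ones. No alternative reversed the direction of the 4 called genes; the call held in 13 of 21 alternatives for the lyase, 18 for the PR-1 gene, 19 for the peroxidase and 6 for the undescribed gene. The causes were not tested. Depth limits the WT side of 6 members, whose WT values rest on at most 3 counts.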

Other observations

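Together the 59 genes took 21.4 to 23.0 CPM of the raw library totals in WT. In the lines they took 710 in C20 replicate 2, 981 and 1147 in C20 replicates 1 and 3, 928 to 979 in C22 and 1361 to 2146 in C40. Abundant genes weigh most in these sums. The H2A gene TraesCS1A01G038200 gave 7290 of the 19365 member counts in C20 replicate 2. In C20 replicate 3 it gave 14 of 33919. The sums thus do not show the lower level of most members in C20 replicate 2.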
